A study of Mus musculus with 22 samples.

Results

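The genes described here are 37 antioxidant and NRF2-linked genes of mouse epididymal white adipose tissue, chosen by name from those known to encode the NRF2 switch and enzymes that remove peroxide, superoxide, quinones and free heme, with the metallothioneins left out. All 37 had a probe on the array, and 36 passed the detection filter, out of 16602 genes tested in all. The filter asked that the Cy5 signal of a probe be well above background on at least 10 of the 22 arrays.

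The hypoxia group held 10 mice kept at 12% oxygen, and the normoxia group held 12 mice kept at 20.9% oxygen, each for 6 hours in an indirect calorimetry system. All mice were male C57BL/6JOlaHsd, an inbred strain, aged 10 weeks at arrival and housed singly. All of them had 3 weeks on a purified diet with 10% of its energy as fat, then 6 weeks on one with 40%, and were fasted before the exposure. The treatment text also speaks of low-fat feeding without naming any animal, so diet could not be separated. Each 2-colour Agilent array carried the RNA of 1 mouse in the red dye, Cy5, and a pool made from all samples in the green dye, Cy3, with no dye swap. Every level below is a log2 ratio of the mouse to that pool, which sets mice against each other for 1 gene and does not rank genes. Every difference is hypoxia minus normoxia on that log2 scale.

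NRF2, encoded by Nfe2l2, is a transcription factor that the adaptor protein KEAP1 marks for breakdown while a cell is unstressed. Oxidants and electrophiles modify KEAP1, NRF2 then gathers in the nucleus with a small MAF protein, and the pair binds the antioxidant response element near genes of glutathione synthesis, quinone reduction, heme breakdown and thioredoxin recycling. In fat, these enzymes handle the peroxide and lipid aldehydes that adipocytes and resident macrophages produce.

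RefSeq promoter windows of assembly GRCm38.p6, from 250 bases before to 50 bases after a start site, were matched to 31 of the 37 members. The core of the antioxidant response element, TGACNNNGC on either strand, occurred in 8 of these 31 (25.8%), against 14.0% of the 27025 genes with such windows. The members were chosen as NRF2-linked or antioxidant genes, so their share is no independent result. Elements farther from the start than the windows reach were not searched. The 8 windows are shown because they hold the letters that NRF2 and its partner are known to bind. They run 5′ to 3′ along the gene's strand, with the match in capitals, read as GCNNNGTCA where it lies on the opposite strand.
Gsta3, chr1:21240454-21240482, plus strand: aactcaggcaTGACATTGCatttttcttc
Nfe2l2, chr2:75704885-75704913, minus strand: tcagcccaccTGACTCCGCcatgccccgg
Srxn1, chr2:152105542-152105570, plus strand: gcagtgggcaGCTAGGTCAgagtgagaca
Gclm, chr3:122245413-122245441, plus strand: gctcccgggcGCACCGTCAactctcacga
Prdx1, chr4:116685456-116685484, plus strand: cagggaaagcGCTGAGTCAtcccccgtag
Mgst1, chr6:138140461-138140489, plus strand: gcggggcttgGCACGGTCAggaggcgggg
Txnrd1, chr10:82859104-82859132, plus strand: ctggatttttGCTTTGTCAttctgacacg
Sod1, chr16:90220696-90220724, plus strand: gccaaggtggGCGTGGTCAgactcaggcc

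The match began 134 bases before the start in Gclm and 56 bases before it in Sod1 and in Mgst1. In Srxn1 it began 28 bases after the start. The short core of the hypoxia response element, ACGTG on either strand, lay in the windows of 8 of the 31 matched members (25.8%), against 21.8% of all genes with windows. Gclm was the member whose window held both letter patterns, the second as the following stretch, 67 bases before the start.
Gclm, chr3:122245480-122245504, plus strand: gcagggggcgCACGTccgcgcgctg
A match describes letters and is neither a binding site nor a cause. The 8 members with the antioxidant core had differences between hypoxia and normoxia of both signs: Gclm stood at 0.19, Nfe2l2 at 0.08, Txnrd1 and Mgst1 at 0.07 each, Gsta3 at 0.06, Prdx1 at -0.03, Srxn1 at -0.06 and Sod1 at -0.17.

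No member passed the test between hypoxia and normoxia. With limma's moderated test and Benjamini-Hochberg adjustment over all 16602 genes at a threshold of 0.05, 0 of 36 members were called, as were 0 of all genes tested (0%). The adjusted p of the members ran from 0.939 to 0.999. At an unadjusted p under 0.05 stood 1 member, Hmox1 (2.78% of the members), against 5.3% of all genes tested. The differences of the 36 members ran from -0.17 for Sod1 to 0.22 for Hmox1, with a median of 0.05 beside 0.001 over all genes. Of the 36, 26 lay above 0 (72.2%), against 50.4% of all genes tested. In the authors' deposited value table, which holds levels and no ratio, 9 of 36 lay above 0, against 36.4% of the genes tested there. With Cy5 alone, also without the ratio to the pool, 27 of 36 lay above 0, against 54.3% of all genes. On normoxia 6 and hypoxia 3 the deposited table correlated more closely with Cy3, the pool, than with Cy5, at 0.962 against 0.902 and at 0.978 against 0.971. The part of this in its split was not tested. In every member the values of the hypoxia and normoxia mice overlapped, as they did in all genes tested (0% without overlap).

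The intervals show how large a change the brightest tested probe of each member leaves room for. On it, for 35 of the 36 members, the 95% interval of the difference lay inside ±0.5 on the log2 scale. For Gpx3 the interval ran from -0.37 to 0.55. Other tested probes of Prdx6 and Gstm1 had larger differences, up to 0.34 ± 0.12 and 0.29 ± 0.12 (SE), and their intervals were not computed. The effect of the offset of 50 used in background correction on these widths was not tested. The median standard error of a member's difference was 0.11, beside 0.098 over all genes. The plot of differences sets all 36 members side by side by role.

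**Figure D1:**
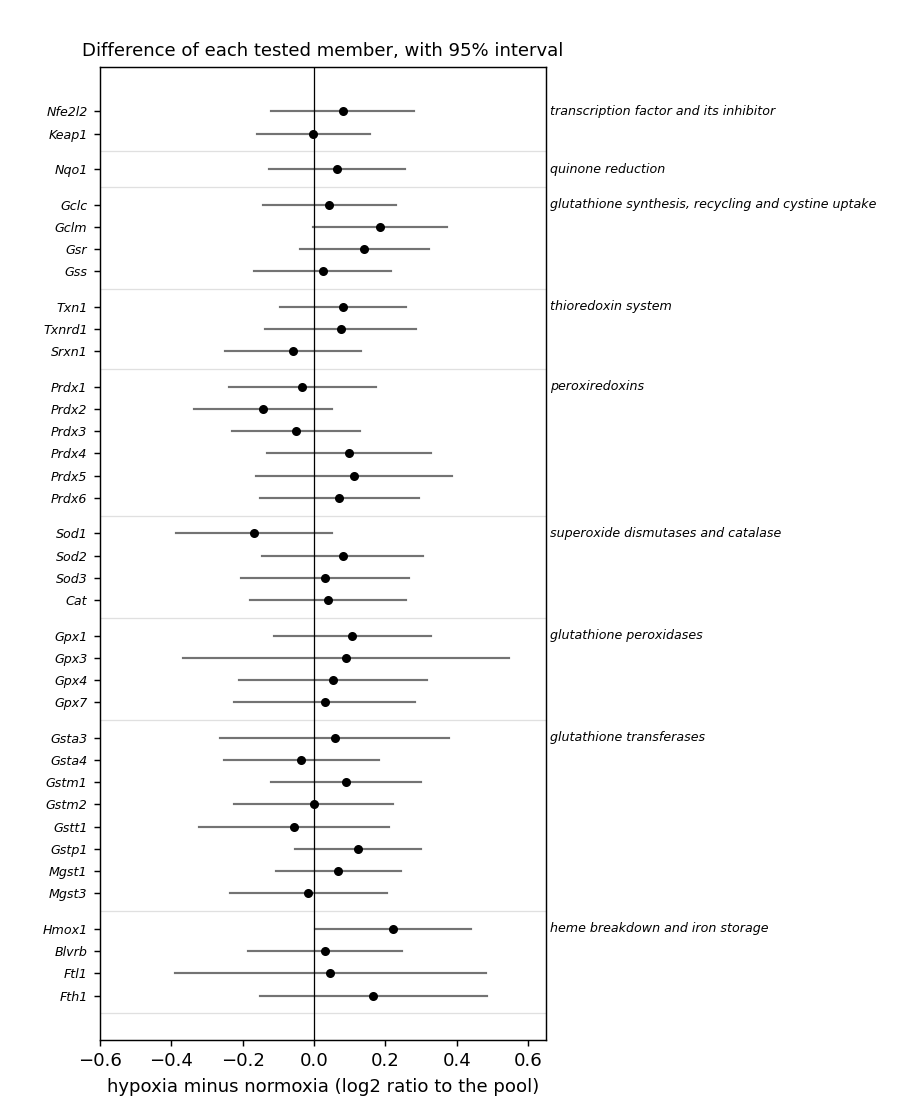
Difference between hypoxia (n = 10) and normoxia (n = 12) for each of the 36 tested members, grouped by role, on the log2 scale (horizontal axis). Points are hypoxia minus normoxia and lines are 95% intervals from limma; the points lie between -0.17 and 0.22, and Gpx3 and Ftl1 have the widest lines.

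The tissue was a bulk fat pad, so fewer cells of a type and less RNA per cell cannot be told apart in any value here. The markers of the labelled tissue were present: all 10 adipocyte markers, among them Adipoq and Plin1, were well above background on all 22 arrays. Their mean level, each marker centred over the arrays, ranged from -0.22 to 0.80 in hypoxia and from -0.39 to 0.70 in normoxia. Of the 10, 9 had differences above 0, with a median of 0.06, and 0 reached an unadjusted p under 0.05 in limma. The arrays lay on 6 slides, of which 5 held 2 arrays of each group and slide 2 held 2 of normoxia alone. The share of spots with a Cy5 signal clear of background ran from 15.6% to 76.8% over the arrays and was under 19% on all 4 arrays of slide 1. On that slide the adipocyte marker mean was 0.54 in hypoxia 5, 0.80 in hypoxia 7, 0.70 in normoxia 3 and 0.0007 in normoxia 5. The highest means of both groups thus lay on slide 1.

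Neither the transcription factor nor its inhibitor passed the test. Nfe2l2 had a lowest, median and highest level of -0.50, -0.14 and 0.40 in hypoxia, against -0.53, -0.12 and 0.15 in normoxia. The hypoxia mice spread somewhat wider at the top and the medians were close together. The difference was 0.08 ± 0.10 (SE; limma, adjusted p = 0.989). Keap1 had levels of -0.54, -0.30 and -0.11 in hypoxia, against -0.58, -0.31 and -0.004 in normoxia. The groups covered the same range. Its difference was -0.002 ± 0.08 (SE), with a 95% interval from -0.16 to 0.16, and its spread between mice of a group, an SD of 0.16, lay at the 8.87th percentile of all genes tested.

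Nqo1, the quinone reductase most often used as a readout of NRF2, was dim in this tissue: its probe was well above background in 6 of 10 hypoxia mice and 8 of 12 normoxia mice. It had levels of -0.22, 0.22 and 0.37 in hypoxia, against -0.25, 0.07 and 0.62 in normoxia. The highest mouse of all was normoxia 4, and the groups overlapped over most of their range. The difference was 0.06 ± 0.09 (SE, adjusted p = 0.993 in limma). With the log ratio computed by the scanner software it stood at -0.20, so no direction can be given for Nqo1.

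Of the genes that make and recycle glutathione, 4 of 5 were tested and all 4 had differences above 0, with a median of 0.09 and none called. Gclm, the modifier subunit of glutamate-cysteine ligase, which is the rate-limiting enzyme of glutathione synthesis, came second of all members. Its probe was well above background in 8 of 10 hypoxia mice and 10 of 12 normoxia mice. It had levels of -0.46, -0.03 and 0.12 in hypoxia, against -0.65, -0.32 and 0.04 in normoxia. Of the 10 hypoxia mice, 8 lay above the normoxia mean, and hypoxia 1 and hypoxia 3 lay below it. The difference was 0.19 ± 0.09 (SE; unadjusted p = 0.053, adjusted p = 0.944, limma). It was above 0 within each of the 5 slides that held both groups, at 0.03 to 0.27. The same held for 2 of the 36 members, Gclm and Hmox1, and how often it held over all genes was not counted. Gclm was lowest in normoxia 10 (-0.65) and normoxia 9 (-0.47), both on slide 2, which held normoxia alone. Its mean within-slide difference was 0.13, below the 0.19 of the fit. Its probe, of 60 bases, is given in the array file with the mm9 coordinates chr3:121962174-121964809, a longer stretch than the probe, and reads as follows.
Gclm probe: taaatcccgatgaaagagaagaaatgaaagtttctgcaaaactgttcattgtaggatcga

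Gclc, the catalytic subunit of the same enzyme, had levels of -0.25, 0.06 and 0.42 in hypoxia, against -0.27, -0.08 and 0.50 in normoxia. The groups covered nearly the same range, and the difference was 0.04 ± 0.09 (SE, adjusted p = 0.995 in limma). Gsr, glutathione reductase, which returns oxidised glutathione to its reduced form, had levels of 0.14, 0.35 and 0.51 in hypoxia, against -0.13, 0.15 and 0.58 in normoxia. The hypoxia mice lay close together and 9 of 10 were above the normoxia mean. The difference was 0.14 ± 0.09 (SE, adjusted p = 0.969 in limma), and 0.04 on the second probe of Gsr. Gss, glutathione synthetase, stood at 0.02. Slc7a11, the cystine carrier that feeds glutathione synthesis, was well above background on 0 of 22 arrays and was not tested.

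The plot of 8 members mouse by mouse shows how far the groups overlap, also for the members with the smallest p.

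**Figure D2:**
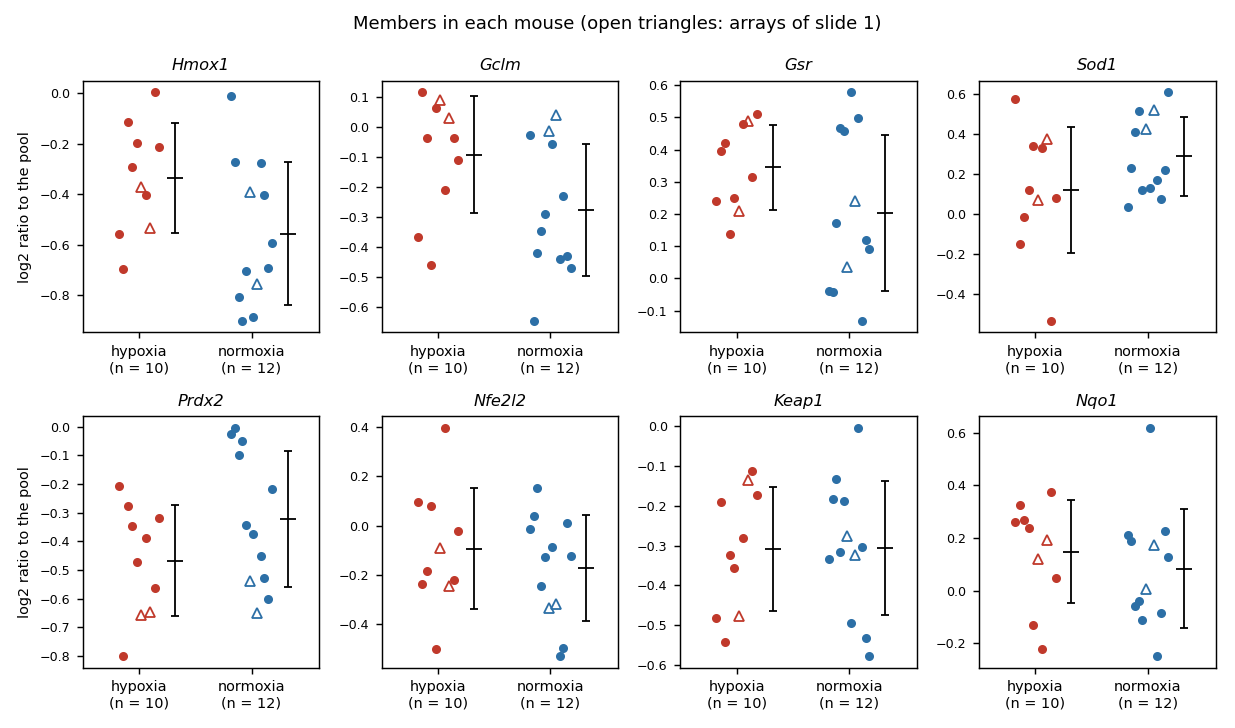
Log2 ratio to the pool (vertical axis) of 8 members in each mouse, hypoxia (10) left and normoxia (12) right, with the mean and SD beside the points and open triangles for the 4 arrays of slide 1. The groups overlap in every panel; for Hmox1 and Gclm 8 of 10 hypoxia mice lie above the normoxia mean.

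The heme and iron genes held the largest difference among the members, and none of the 4 was called. Hmox1, heme oxygenase, which splits free heme into biliverdin, iron and carbon monoxide, averaged -0.34 ± 0.22 in hypoxia (SD, n = 10) and -0.56 ± 0.28 in normoxia (SD, n = 12). Its lowest, median and highest levels were -0.70, -0.33 and 0.003 in hypoxia, against -0.90, -0.64 and -0.01 in normoxia. On this brightest probe nearly every mouse lay below the pool. There, 8 of 10 hypoxia mice lay above the normoxia mean, and normoxia 1 was close to the highest hypoxia mouse. The difference was 0.22 ± 0.11 (SE; unadjusted p = 0.049, adjusted p = 0.939, limma), with a 95% interval from 0.001 to 0.44. Within slides it ran from 0.01 to 0.60, above 0 in all 5. Without normoxia 1 it was 0.27, and without hypoxia 8 it was 0.18. A second Hmox1 probe, elsewhere in the gene, gave 0.20 ± 0.11 (SE, unadjusted p = 0.083 in limma). Its means were 0.14 in hypoxia and -0.06 in normoxia, so its mice did not lie mostly below the pool in both groups. That second probe reads as an open reading frame and lies at chr8:77620797-77620856 of mm9.
Hmox1 second probe: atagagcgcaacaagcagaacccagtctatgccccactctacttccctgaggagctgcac

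No marker of any other cell type was called either, and several marker lists lay mostly on one side of 0. Of 12 macrophage markers, 9 had differences above 0 and 3 below, with a median of 0.11. C1qb (0.39 ± 0.11, SE) and C1qa (0.24 ± 0.11, SE) reached an unadjusted p under 0.05, as did 5.3% of all genes tested. The mean of the macrophage markers ranged from -0.14 to 0.41 in hypoxia and from -0.25 to 0.14 in normoxia. Of 10 red blood cell markers, 5 were tested, 3 reached an unadjusted p under 0.05 and all 5 had differences above 0. The 5 were led by the globin Hba-a1 at 0.60 ± 0.17 (SE, adjusted p = 0.501 in limma). Their mean ranged from -0.33 to 0.91 in hypoxia and from -0.86 to 0.55 in normoxia, and Ahsp was well above background on no array. Of 8 smooth muscle and pericyte markers, 7 were tested and all 7 lay above 0, with a median of 0.23, and 4 reached an unadjusted p under 0.05, among them Cnn1 at 0.96 ± 0.37 (SE) and Tagln at 0.47 ± 0.16 (SE). Their mean ranged from -0.20 to 0.52 in hypoxia and from -0.57 to 0.44 in normoxia. All 8 mesothelium markers lay above 0, with a median of 0.18, as did 7 of 8 endothelium markers, with a median of 0.07. In each of these lists 1 marker reached an unadjusted p under 0.05. The 5 tested testis germ cell markers lay below 0, with a median of -0.41. Other lists did not lean upward. Of 8 stem and progenitor markers 3 lay above 0, with a median of -0.003. Of 4 tested neutrophil markers 2 lay above 0, with a median of 0.10. The part of these cells in the value of Hmox1, or of any other member, was not tested.

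The other heme and iron members were Blvrb, biliverdin reductase, at 0.03, and the 2 ferritin chains, which store iron. Fth1, the heavy chain, had levels of 0.15, 0.45 and 1.62 in hypoxia, against 0.07, 0.35 and 1.29 in normoxia. The highest mice of both groups lay on slide 1. Its difference was 0.17 ± 0.16 (SE, adjusted p = 0.982 in limma). Leaving out 1 array of slide 1 moved it to 0.05 (hypoxia 7) or 0.24 (normoxia 3), and in the deposited value table it was 0.005. Ftl1, the light chain, stood at 0.05 ± 0.21 (SE).

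Slide 1 stood wholly apart in 3 members, and further members leaned to one side on it. The share of all genes tested in which slide 1 stood apart was not counted. In Fth1, Ftl1 and Prdx5 all 4 arrays of slide 1, hypoxia 5 and 7 and normoxia 3 and 5, lay above every other array. For Ftl1 these 4 lay between 1.38 and 1.75 and the other 18 arrays between -0.13 and 0.69. For Fth1 they lay between 0.77 and 1.62, with the others between 0.07 and 0.55, and for Prdx5 between 0.57 and 1.05, with the others between -0.17 and 0.54. Both groups were high on that slide. The second probes of Ftl1 and Prdx5 did not show it: on slide 1 they lay at -0.50 to 0.20 and at -0.44 to 0.16, inside or close to the range of the other slides. Other members were shifted on slide 1 with some overlap, in both directions. Sod3 had a median of 0.48 on slide 1 against -0.05 on the other slides, and Gpx4 0.38 against -0.13. Prdx2 had -0.65 against -0.34, and Gsta3 -0.62 against -0.25. The cause of these shifts was not tested.

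**Figure D3:**
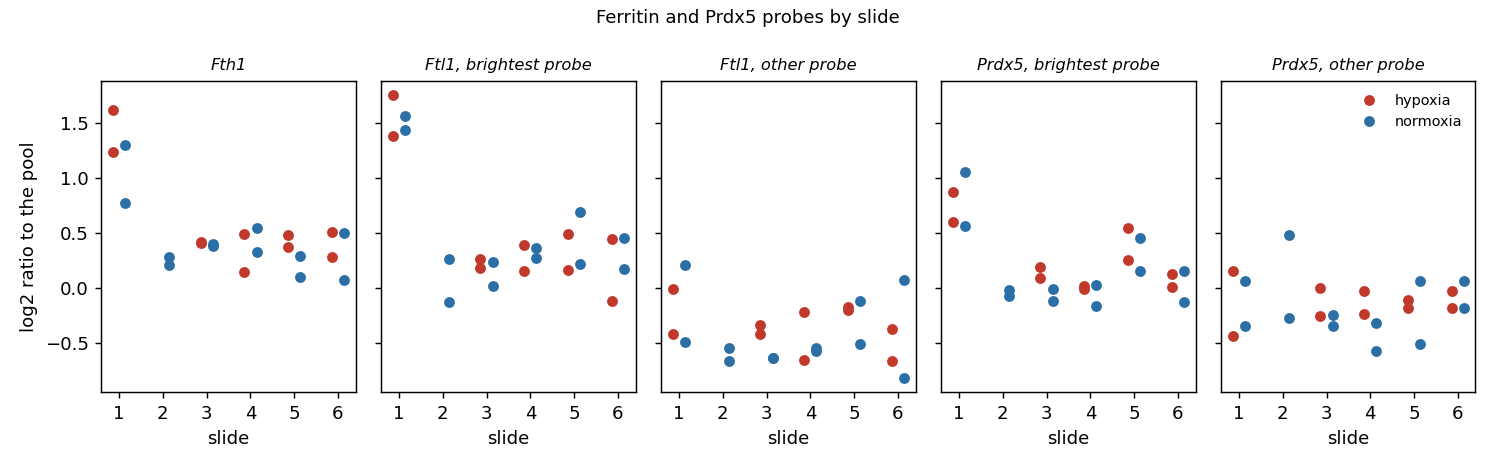
Log2 ratio to the pool (vertical axis) by slide (horizontal axis) for the Fth1 probe and for both probes of Ftl1 and Prdx5, hypoxia in red and normoxia in blue. On slide 1 the brightest probes of Ftl1 and Prdx5 and the Fth1 probe lie above every other array, and the other probes of Ftl1 and Prdx5 do not.

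The thioredoxin system reduces peroxiredoxins and protein disulfides, and 2 of its 3 members had differences above 0. Txn1, thioredoxin, had levels of -0.28, 0.03 and 0.24 in hypoxia, against -0.40, -0.10 and 0.25 in normoxia. The groups shared their upper end. The difference was 0.08 ± 0.09 (SE, adjusted p = 0.984 in limma). Txnrd1, thioredoxin reductase, stood at 0.07, and Srxn1, sulfiredoxin, which repairs overoxidised peroxiredoxins, at -0.06.

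The 6 peroxiredoxins, the enzymes that clear most low-level peroxide, split into 3 above 0 and 3 below. Prdx2, the cytosolic form abundant in red blood cells, had levels of -0.80, -0.43 and -0.21 in hypoxia, against -0.65, -0.36 and -0.004 in normoxia. The normoxia mice reached higher, and 7 of 10 hypoxia mice lay below the normoxia mean. The difference was -0.14 ± 0.09 (SE, adjusted p = 0.970 in limma), while the 5 tested red blood cell markers stood above 0; their part in it was not tested. Prdx3, the mitochondrial form, stood at -0.05, Prdx1 at -0.03, Prdx4 of the endoplasmic reticulum at 0.10 and Prdx5 at 0.11.

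Prdx6, which reduces phospholipid hydroperoxides, depended on the probe. Its brightest probe gave 0.07 ± 0.11 (SE), but the other tested probes gave 0.34 ± 0.12 (SE, unadjusted p = 0.009 in limma) and 0.24 ± 0.09 (SE, unadjusted p = 0.011 in limma). On the probe with the larger difference the levels were -1.03, -0.44 and 0.04 in hypoxia, against -1.35, -0.85 and -0.54 in normoxia. On it the highest hypoxia mice lay above every normoxia mouse, while the lower ends overlapped. Its mean was -0.53 ± 0.35 in hypoxia (SD, n = 10) and -0.87 ± 0.24 in normoxia (SD, n = 12). It lies at chr1:163173715-163173774 of mm9 and reads as an open frame.
Prdx6 probe with the larger difference: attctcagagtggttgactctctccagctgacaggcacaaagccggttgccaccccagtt

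Of the superoxide dismutases and catalase, 3 of 4 lay above 0, and Sod1 had the lowest difference of all members. Sod1, the cytosolic copper-zinc enzyme, had levels of -0.53, 0.10 and 0.57 in hypoxia, against 0.03, 0.22 and 0.61 in normoxia. Of the 10 hypoxia mice, 6 lay below the normoxia mean, and hypoxia 8 was the lowest mouse of all. The difference was -0.17 ± 0.11 (SE, adjusted p = 0.970 in limma), below 0 on 4 of 5 slides and 0.15 on slide 6. Sod2, the mitochondrial manganese enzyme, had levels of -0.39, -0.02 and 0.20 in hypoxia, against -0.46, -0.22 and 0.47 in normoxia. The normoxia mice spread wider, and the difference was 0.08 ± 0.11 (SE, adjusted p = 0.991 in limma). Catalase, Cat, stood at 0.04 and Sod3, the secreted enzyme, at 0.03.

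All 4 glutathione peroxidases lay above 0, with a median of 0.07. Each fell below 0 in at least 1 alternative processing, with lowest values of -0.046 for Gpx1, -0.032 for Gpx3, -0.072 for Gpx4 and -0.060 for Gpx7. Those of Gpx1 and Gpx3 came from the deposited value table, where the median of all genes was -0.041. The sign held in 13 of 14 alternatives for Gpx1 and Gpx4, 11 of 14 for Gpx3 and 10 of 13 for Gpx7. Gpx1, the main cytosolic form, had levels of -0.47, -0.03 and 0.41 in hypoxia, against -0.60, -0.08 and 0.17 in normoxia. The hypoxia mice reached higher, and the difference was 0.11 ± 0.11 (SE, adjusted p = 0.982 in limma). Gpx3, the secreted plasma form that adipose tissue makes in quantity, was the most variable member. It had levels of -0.97, -0.39 and 0.61 in hypoxia, against -1.65, -0.19 and 0.72 in normoxia. The lowest mouse was normoxia 1 and the highest normoxia 5. Its difference was 0.09 ± 0.22 (SE, adjusted p = 0.995 in limma), and -0.03 without normoxia 1. Gpx4, which protects membranes from lipid peroxides, stood at 0.05 and Gpx7 at 0.03.

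The 8 glutathione transferases, which couple glutathione to electrophiles, split evenly, 4 above 0 and 4 below. Gstp1 had levels of -0.21, -0.04 and 0.06 in hypoxia, against -0.64, -0.13 and 0.12 in normoxia. The hypoxia mice lay in a narrow band and 9 of 10 were above the normoxia mean. The difference was 0.12 ± 0.09 (SE, adjusted p = 0.979 in limma), and 0.01 on its second probe. Gstm1 had levels of -0.41, -0.11 and 0.27 in hypoxia, against -0.62, -0.18 and 0.29 in normoxia. The groups shared their upper end, and the difference was 0.09 ± 0.10 (SE, adjusted p = 0.986 in limma). The array file places that probe on chromosome 5, while RefSeq has Gstm1 on chromosome 3. The probe that the file places on chromosome 3 gave 0.29 ± 0.12 (SE, unadjusted p = 0.021 in limma). On it the levels were -0.84, -0.23 and 0.21 in hypoxia, against -1.21, -0.52 and -0.15 in normoxia. The Gstm genes are near copies of each other, so which of them a probe reads is uncertain. Gsta3 stood at 0.06, Mgst1 at 0.07, Gstm2 at -0.002, Mgst3 at -0.02, Gsta4 at -0.04 and Gstt1 at -0.06.

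Over the 52 tested probes of the members, 39 had differences above 0. At an unadjusted p under 0.05 were 4 of the 52, those of Prdx6 (2), Gstm1 and Hmox1, against 5.23% of all 21470 probes tested. None passed the threshold when the fit was made probe by probe, and the smallest adjusted p was 0.829. Of the 14 members with more than 1 tested probe, Gstm2 and Prdx1 had probes of both signs.

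**Figure D4:**
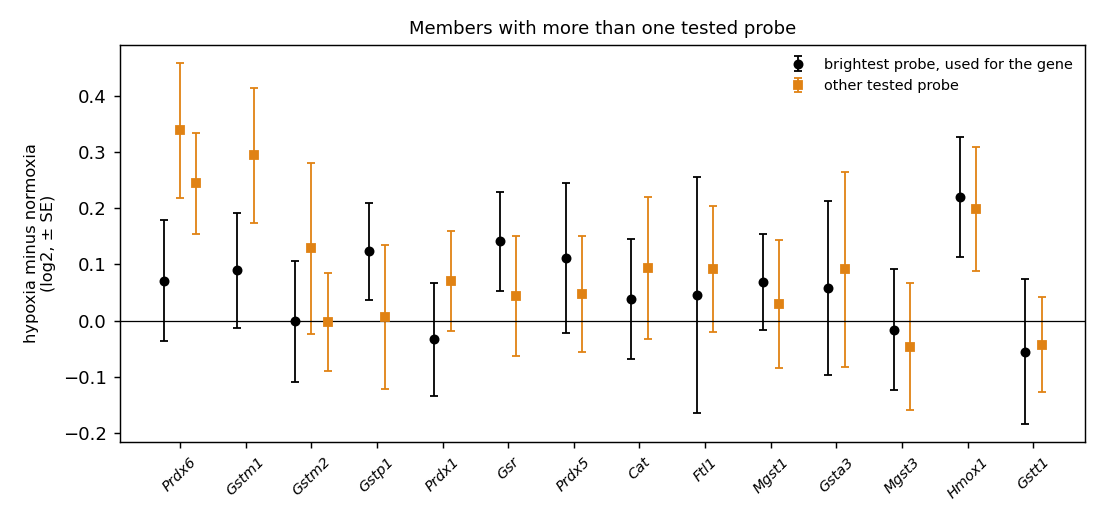
Difference between hypoxia and normoxia (log2, ± SE) for every tested probe of the 14 members with more than 1, black circles for the brightest probe and orange squares for the others. The probes of Hmox1 lie close together, and the other probes of Prdx6 and Gstm1 lie above the brightest one.

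In all 36 members the difference between the groups was smaller than the SD between mice of a group. How often this held over all genes was not counted. The members' SD had a median of 0.26, beside 0.23 over all genes, and the 5 widest were Gpx3 (0.58), Ftl1 (0.56), Gsta3 (0.40), Fth1 (0.40) and Prdx5 (0.34). Gpx3 and Ftl1 lay at the 97.6th and 97.4th percentile of all genes tested. Without slide 1 the SD of Gpx3 was 0.53 and that of Gsta3 was 0.39, whereas those of Ftl1, Fth1 and Prdx5 were 0.21, 0.14 and 0.18. Normoxia 1 was the lowest array in 8 of the 36 members, Gstp1, Fth1, Gpx1, Gstm1, Gclc, Gstt1, Gpx3 and Gsta4. That mouse also had the highest mean of testis germ cell markers, 3.37 over 5 tested markers, and an adipocyte marker mean of -0.37. The part of this in its low values was not tested.

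**Figure D5:**
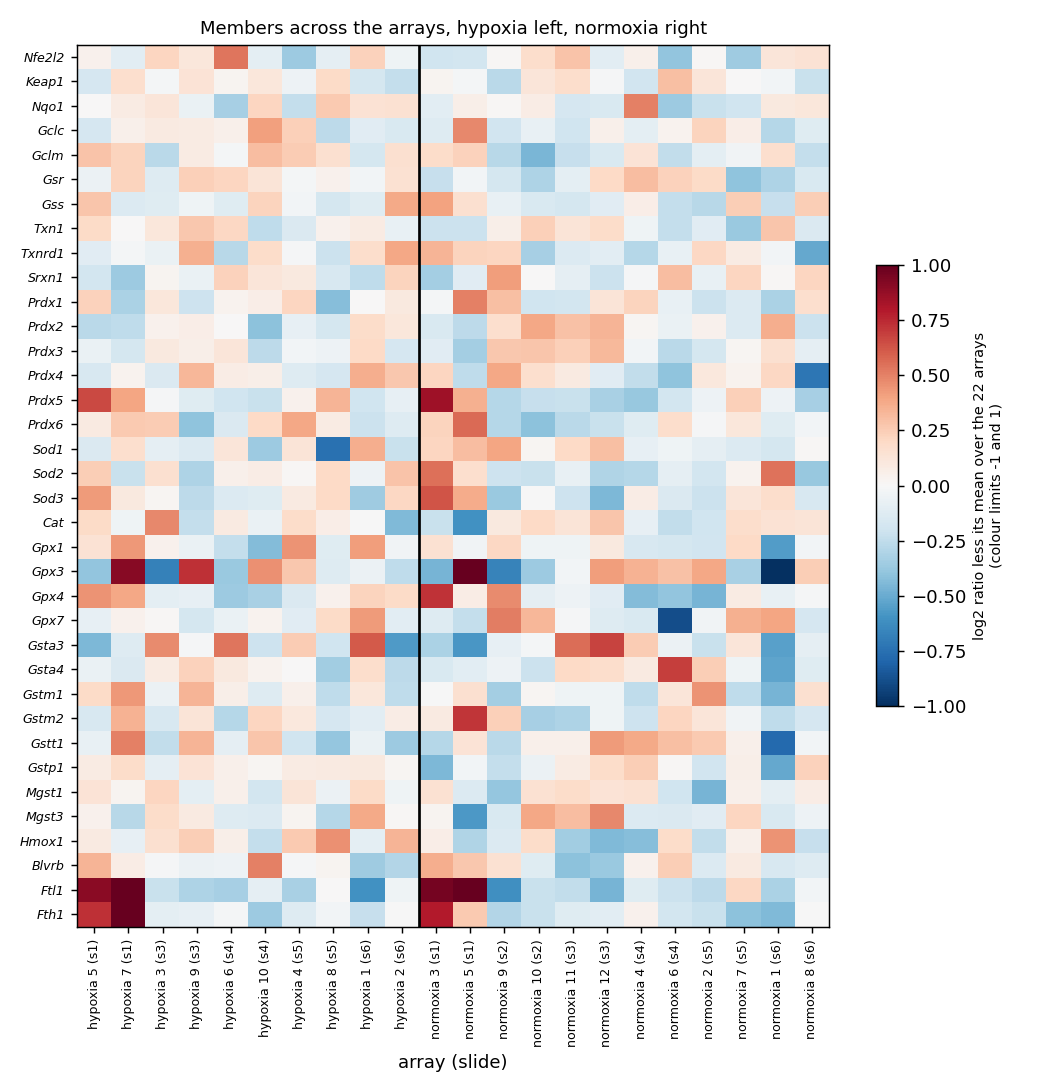
Log2 ratio to the pool of the 36 tested members (rows), each less its mean over the 22 arrays, by array (columns, with the slide in brackets), hypoxia left of the black line and normoxia right. Red is above and blue below a member's mean; the red Ftl1 and Fth1 cells fall on slide 1 in both groups, and the deepest blue Gpx3 cell is normoxia 1.

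The wider pathway was read from 9 lists of 112 other genes, of which 102 were tested and 0 were called. At an unadjusted p under 0.05, 5 lay higher in hypoxia and 2 lower, against 2.57% and 2.73% of all genes tested. Of the 102, 67 lay above 0, against 50.4% of all genes tested, with a median of 0.04 beside 0.001. The lists were not read in the deposited value table. Among 10 tested regulators of NRF2, Maff and Mafk, small MAF proteins that pair with NRF2 or with its competitor BACH1, stood at 0.31 ± 0.10 (SE, adjusted p = 0.681 in limma) and 0.21 ± 0.08 (SE, adjusted p = 0.864 in limma). Maff averaged 0.05 ± 0.15 in hypoxia (SD, n = 10) and -0.26 ± 0.27 in normoxia (SD, n = 12). Slc3a2, the heavy chain that carries Slc7a11 and other amino acid transporters to the membrane, averaged -0.21 ± 0.25 in hypoxia (SD, n = 10) and -0.52 ± 0.25 in normoxia (SD, n = 12). Its difference was 0.31 ± 0.10 (SE, adjusted p = 0.746 in limma), while Slc7a11 itself was not detected.

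Slc40a1, the iron exporter ferroportin, stood at 0.25 ± 0.11 (SE) in a heme and iron list with 9 of 10 tested genes above 0. Akr1a1, an aldehyde reductase, stood at 0.19 ± 0.08 (SE) among 16 tested detoxification genes, 8 of them above 0. The 2 genes on the low side were Tkt, transketolase of the pentose phosphate pathway, at -0.23 ± 0.10 (SE), and Mgst2, a microsomal glutathione transferase, at -0.27 ± 0.13 (SE). Of the 8 genes that supply NADPH, the reductant for glutathione and thioredoxin, 3 lay above 0. Among 10 genes for sources of superoxide and peroxide 9 lay above 0, and Xdh, xanthine dehydrogenase, had the smallest p there, with 0.19 ± 0.10 (SE, unadjusted p = 0.065 in limma). Of 14 tested genes for thioredoxin partners and methionine sulfoxide repair 10 lay above 0, with Park7 at 0.13, and of 7 for selenoprotein supply 4 did, with Selenos at 0.14.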

How the data were processed

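Per the file headers, the deposited scanner files hold the mean signal and median local background of each spot as intensity in Cy5 and Cy3, extracted with Agilent Feature Extraction (version 10.7.3.1 per the submitters' processing notes). Their log10 ratio, per the file headers, carries that software's own background subtraction and dye normalization. Its 0 or 1 flags are deposited beside it. The deposited value table holds log2 levels for 33845 spots with a median of 6.30 on every array; its normalization and centring are not given in the sources used here, and 2 of its 22 columns correlated more closely with Cy3 than with Cy5.

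From the intensities, the background was corrected with normexp (offset 50) and ratios were normalized by loess within arrays (limma 3.58.1, R 4.3.3), in which control spots had weight 0. Outlier-flagged spots were left out and spots of a probe averaged. A gene was represented by its brightest tested probe. Differences were fitted with lmFit and eBayes with group as the only term, over all 16602 genes, two-sided, with Benjamini-Hochberg adjustment. The precision is limited by the number of arrays. Each array is 1 mouse and the series text calls the mice biological replicates. No pair of arrays was identical. Gene names were updated through RefSeq, by accession for 27235 of 55681 probes, and 24300 kept the file's name; no member probe changed its gene.

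The members and all gene lists were chosen with earlier results of these data known. Levels are given for the 10 members with the smallest p and for Nfe2l2, Keap1, Nqo1, Gclc, Hmox1, Sod2 and Gpx3; from the pathway lists, genes with an unadjusted p under 0.05 and the smallest p of each list are named. Markers of cell types are given as lists, with examples chosen after their values were seen. The alternatives were the scanner software's ratio, Cy5 alone, the value table, filters, scaling, array weights, slides, the replicate block, probe rules and each array left out. The fit was tested on simulated data. Coordinates of probes were taken from the array files (mm9), and their exons were not looked up.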

Additional observations from a re-analysis of the deposited data

How the results depend on the processing

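Under the 14 alternatives and with each of the 22 arrays left out, the number of members past the threshold was 0 each time. Of all genes tested, 0 passed; 1 did with the scanner software's log ratio, with probes well above background on all arrays and with arrays scaled to equal spread, 2 with Cy5 alone, with slide as a fixed block and without slide 1, and 4 with array quality weights. Leaving out 1 array gave 0 to 3, with 3 without hypoxia 7 and 1 without normoxia 4, normoxia 8 or hypoxia 4. None of these genes was a member. In the deposited value table the median of the members was -0.036 (all genes -0.041), 9 lay above 0 and 17 of 36 kept their sign. Elsewhere the median ran from 0.043 to 0.064, and from 0.034 to 0.066 with 1 array left out, when 24 to 30 members lay above 0 and 30 to 36 kept their sign.

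Of the 36 members, 25 turned direction in at least 1 of the 14 alternatives. Those that kept their sign least often were Gstm2 and Ftl1 (8 of 14 each), Sod3 and Mgst3 (9 of 14 each), Gss (9 of 13), Prdx1 (10 of 14) and Gpx7 (10 of 13). The values of the members followed through every setting were these. In the value table, Gpx1 was -0.046, Txn1 -0.019, Gstm1 -0.022, Gclc -0.0041, Sod2 -0.018, Gpx3 -0.032, Ftl1 -0.12, Gsta3 -0.053 and Prdx5 -0.024. With the scanner software's log ratio Nqo1 was -0.20 and Ftl1 -0.020, with Cy5 alone Keap1 was 0.024, and with array weights Gsta3 was -0.063. With slide as a fixed block, and likewise without slide 2, Gpx3 was -0.0059 and Ftl1 -0.034; without slide 1 Ftl1 was -0.012. With 1 array left out, Keap1 ran from -0.027 to 0.025, Gclc from -0.00093 to 0.088, Gpx3 from -0.030 to 0.19, Ftl1 from -0.093 to 0.15 and Gsta3 from -0.0077 to 0.12. Gpx3 turned without normoxia 1 or hypoxia 7, Ftl1 without normoxia 9, hypoxia 5 or hypoxia 7, Gsta3 without hypoxia 1, Gclc without hypoxia 10 and Keap1 without any of 9 arrays. The cause was not tested. Hmox1 ran from 0.13 to 0.27, with an unadjusted p under 0.05 in limma in 9 of 14 alternatives. In every alternative that tested them, 11 members kept their sign, among them Gclm and Prdx4 with 13 alternatives each.

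The replicate numbers are names: of 10 same-numbered pairs, 2 had a correlation of deviations over 0.1 (range -0.47 to 0.25) and 0 correlated best with their own number. With the replicate block 0 genes and 0 members passed, the member median was 0.046, 25 members lay above 0, Keap1 was 0.014 and Ftl1 -0.021. Signal over background limits Nqo1, Gclm, Gss, Prdx4, Txnrd1, Gpx7 and Gsta4, which were not well above background on all arrays.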
